A study of Homo sapiens with 30 samples.

Results

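Adenosines preceded by a guanosine on the transcript strand, the 5′ neighbour that adenosine deaminases acting on RNA (ADARs) favour least, made up 42686 of the 352425 adenosines that the deposited list of A-to-G sites placed in exons of exactly 1 gene. They were found by looking up the base just before each listed adenosine in GENCODE release 29 transcripts on GRCh38. The whole list held 382978 sites. The 42686 sites lay in 6040 genes, with a median of 4 per gene, and were divided by the base after the adenosine: 27755 were followed by guanosine (GAG), 7464 by cytidine (GAC), 4564 by adenosine (GAA) and 2902 by uridine (GAU), and 1 lay at a transcript's end.

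ADARs convert adenosine to inosine in double-stranded RNA, and inosine is read as guanosine in cDNA. The bases on either side of the adenosine set how well it is edited: uridine or adenosine before it favour editing, guanosine before it disfavours editing, and guanosine after it favours editing. The substitutions E488Q in ADAR2 and E1008Q in ADAR1 replace a glutamate close to the edited base by glutamine and are known for raising the activity of both enzymes.

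Editing was measured by poly(A) RNA sequencing in the human embryonic kidney line HEK 293T, harvested 60 h after lipofection. The 22 deaminase libraries came from full-length ADAR2 (E488Q) and full-length wild-type ADAR2, each with and without a GluR2 adRNA guide (4 libraries), the ADAR2 deaminase domain (DD) with E488Q on Cas13b with and without its gRNA (2 libraries), and DDs on MCP, the coat protein that binds the MS2 hairpins of the MS2 adRNA guide (16 libraries: ADAR2 with E488Q or wild type and ADAR1 with E1008Q or wild type, each with an NLS, which directs proteins into the nucleus, or an NES, which directs their export from it, and each with and without guide). Controls were GFP, each of the 3 guides alone and untransfected cells. Each condition was 1 library, the untransfected runs were repeat sequencing of 1 library, all cells kept their own ADARs, and protein amounts were not measured, so a difference between constructs and a difference between single transfections cannot be told apart. The values are the authors' shares of reads with the edited base, without read counts. Depth is therefore unknown, and the tables give no expression by which the cell line could be checked.

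The sites below show the contexts the results turn on. For each base after the adenosine the sites with the largest mean gain over untransfected cells are given, 29 bases of transcript sequence 5′ to 3′ from GENCODE release 29, in lower case with the triplet around the edited adenosine in capitals. The windows lie at chr4:76179645-76179673 (minus strand) for SCARB2, chr6:139135349-139135377 (plus) for HECA, chr16:3727796-3727824 (minus) for CREBBP, chr17:4062853-4062881 (minus) for ZZEF1, chr16:70780808-70780836 (minus) for VAC14 and chr1:201466004-201466032 (minus) for PHLDA3, all on GRCh38. The HDLBP window crosses a splice junction, with its adenosine at chr 2, position 241272761 (minus).
SCARB2 GAG, E157G: cagggagaucaucGAGgccauguugaaag
HECA GAC, 5′ UTR: auccgccuucgcuGACgccgggcaccuac
HDLBP GAC, 5′ UTR: ggcgggggcccacGACaaaagcuggcagg
CREBBP GAA, N2413D: ugcucccccagcuGAAcacccccagcagg
ZZEF1 GAA, E1590G: ccagagcauccugGAAguccugaagauaa
VAC14 GAU, D355G: gcccaccccugacGAUgcccugccaaagc
PHLDA3 GAU, 3′ UTR: gaugcagccccugGAUggucccagacucu

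The next set holds sites with large differences for each construct feature, and the site that full-length ADAR2 edited most above MCP-ADAR2. CLTC lies at chr17:59620052-59620080 (plus), BCAR1 at chr16:75235184-75235212 (minus), APBA2 at chr15:29054469-29054497 (plus) and FASTK at chr7:151080419-151080447 (minus). The windows of PSMC3IP (chr 17, position 42573623, minus) and SNRPB (chr 20, position 2463221, minus) cross splice junctions.
CLTC higher with E-to-Q: cuccucucccuugGAGagcccgggcagcc
BCAR1 lower with E-to-Q: gacgcuggccgggGAGgcucuggagccac
PSMC3IP higher with NLS: cuacauggaggcuGAGcucaaggaauuau
APBA2 higher with ADAR2: cuacuaccccgagGAGgccaacgggaaca
SNRPB higher with ADAR1: cccaacaggugauGACcccacaaggaaga
FASTK higher with full-length ADAR2: ucacgccgcugguGAGugggagcgcccag

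5′ guanosine was under-represented in the list. It preceded 12.1% of the listed adenosines, against 25.4% of all adenosines in 1 transcript of each of the 8809 genes with a listed site. Per 1000 transcript adenosines, 18.4 were listed after guanosine, against 48.6 after uridine, 45.9 after adenosine and 43.0 after cytidine. The base after the adenosine divided the 5′ guanosine sites further. Of GAG adenosines 39.3 per 1000 were listed, of GAC 17.6, of GAU 6.30 and of GAA 6.29, while the same 3′ bases without a 5′ guanosine had 94.2, 52.1, 16.4 and 18.3. GAG thus made up 65.0% of the listed 5′ guanosine sites but 30.4% of the 5′ guanosine adenosines in the transcripts. The list holds sites that passed in some library, so these rates describe the union of 22 deaminase libraries and lean on the most active ones.

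A call required that the authors' deposited table gave an adjusted p under 0.01 for the library and that the share exceeded the mean of the untransfected runs. By construct, 127 to 21125 of the 42686 5′ guanosine sites were called. The share called among the 5′ guanosine sites is given with that among all listed sites. Among full-length ADAR2 libraries, E488Q with guide had 16213 called (38.0%, against 32.7% of all 382978 listed sites), E488Q without guide had 3260 called (7.64%, against 6.72%), wild type with guide had 1571 called (3.68%, against 4.85%) and wild type without guide had 385 called (0.902%, against 1.5%). For the Cas13b fusion, the library with gRNA had 3345 called (7.84%, against 12.9%) and the library without it had 9569 called (22.4%, against 29.5%). In full-length ADAR2 (E488Q) the 5′ guanosine sites were called at a higher rate than the listed sites as a whole, with and without guide. In the other 20 deaminase libraries they were called at a lower rate. The list is the union of all libraries, so a library that adds many sites of its own, as the full-length E488Q library with guide did, also shapes the rate it is set against.

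In MCP-ADAR2 with E488Q, NLS with guide had 3144 called (7.37%, against 9.94%), NLS without guide had 2153 called (5.04%, against 7.32%), NES with guide had 3602 called (8.44%, against 11.2%) and NES without guide had 2879 called (6.74%, against 9.21%). In wild-type MCP-ADAR2, NLS with guide had 210 called (0.492%, against 1.24%), NLS without guide had 127 called (0.298%, against 0.982%), NES with guide had 1067 called (2.50%, against 5.29%) and NES without guide had 500 called (1.17%, against 2.48%). The 4 E488Q libraries did not overlap the 4 wild-type ones, and neither did they over all listed sites (7.32 to 11.2%, against 0.982 to 5.29%). In MCP-ADAR1 with E1008Q, NLS with guide had 8941 called (20.9%, against 28.9%), NLS without guide had 7228 called (16.9%, against 23.5%), NES with guide had 17825 called (41.8%, against 51.1%) and NES without guide had 21125 called (49.5%, against 59.2%). In wild-type MCP-ADAR1, NLS with guide had 855 called (2.00%, against 7.45%), NLS without guide had 614 called (1.44%, against 5.35%), NES with guide had 4862 called (11.4%, against 26.4%) and NES without guide had 6025 called (14.1%, against 30.3%). The E1008Q libraries lay above all wild-type ones at 5′ guanosine sites. Over all listed sites the 2 groups overlapped (23.5 to 59.2%, against 5.35 to 30.3%). The controls were near 0: the MS2 adRNA alone had 1 called 5′ guanosine site (0.00366% of all listed sites called), the GluR2 adRNA alone 1 (0.0047%), the gRNA alone 2 (0.00601%), and GFP 0 (0.00157%).

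The share of called sites with a 5′ guanosine was higher with E-to-Q than with wild type among the MCP libraries and among the full-length ones, and higher in full-length ADAR2 than in MCP-ADAR2 of the same variant. The Cas13b values overlapped those of MCP-ADAR2 (E488Q). It was 14.2 and 14.1% in full-length ADAR2 (E488Q) with and without guide, and 9.41 and 7.48% in full-length wild-type ADAR2. It was 7.31 and 9.18% in the Cas13b fusion with and without gRNA. In the MCP fusions it averaged 8.87 ± 0.339% with ADAR2 (E488Q) and 5.04 ± 0.974% with wild-type ADAR2, and 9.36 ± 0.724% with ADAR1 (E1008Q) and 4.34 ± 1.25% with wild-type ADAR1 (SD, n = 4 libraries each). The 8 MCP libraries with an E-to-Q variant lay between 8.40 and 10.1%, and the 8 wild-type ones between 3.26 and 5.80%, without overlap. The lowest values belonged to wild-type ADAR1 with NLS, at 3.26 and 3.27%. Every library stayed below the 25.4% of transcript adenosines.

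**Figure D1:**
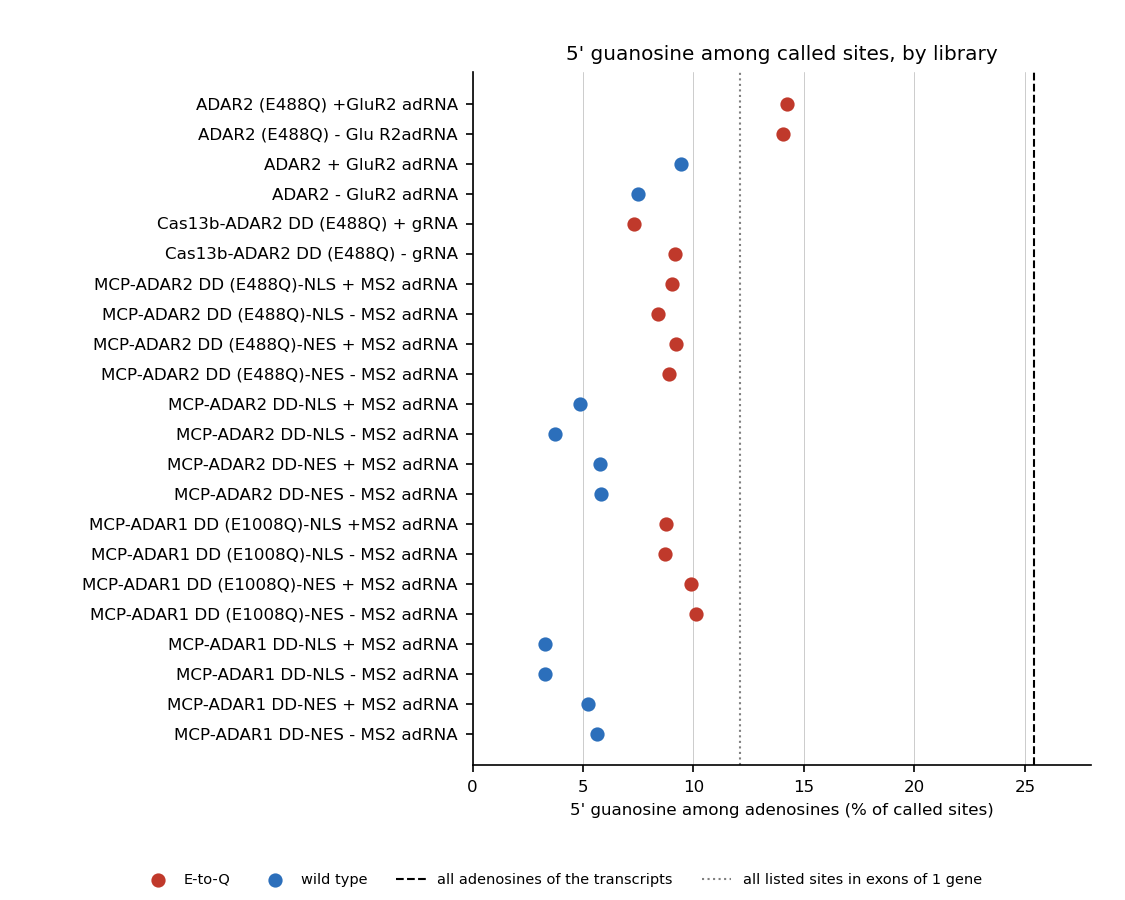
Share of called sites whose adenosine follows a guanosine (%, x axis) in each of the 22 deaminase libraries (1 point each), with the share among all adenosines of the transcripts (dashed, 25.4%) and among listed sites (dotted, 12.1%). The 2 full-length ADAR2 (E488Q) libraries at 14.2 and 14.1% are the only ones right of the dotted line.

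To set the base composition of the transcripts aside, the number of called sites per transcript adenosine after a 5′ guanosine was divided by the number expected from adenosines with other 5′ bases and the same 3′ base. This relative call rate is 1 where the 5′ guanosine makes no difference. It was 0.469 and 0.460 in full-length ADAR2 (E488Q) and 0.290 and 0.223 in full-length wild-type ADAR2 (with and without guide in each), and 0.223 and 0.286 in the Cas13b fusion. It averaged 0.284 ± 0.0203 in the MCP libraries with E-to-Q and 0.138 ± 0.0338 in the wild-type ones (SD, n = 8 libraries each). A 5′ guanosine therefore went with 2.13-fold fewer calls in the most tolerant library, full-length ADAR2 (E488Q) with guide, and with 10.6-fold fewer in the least tolerant, wild-type MCP-ADAR1-NLS with guide.

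This rate differed by the base after the adenosine, and in different ways by construct. GAC had the lowest relative rate of the 4 contexts in 19 of 22 libraries. GAG had the highest in 12 and GAA in 8. In wild-type MCP-ADAR2 the GAA rate was 0.274 ± 0.0340, above GAG at 0.151 ± 0.0305, GAU at 0.122 ± 0.0608 and GAC at 0.0853 ± 0.0194 (SD, n = 4 libraries). The lowest GAA value of these 4 libraries, 0.238, exceeded the highest value in any of the other contexts, 0.180. In wild-type MCP-ADAR1 no such gap appeared: GAA stood at 0.126 ± 0.0449, GAG at 0.140 ± 0.0419, GAU at 0.0910 ± 0.0234 and GAC at 0.0747 ± 0.0250. With E488Q in MCP-ADAR2 the 4 contexts were closer to each other, at 0.305 ± 0.0162 for GAA, 0.298 ± 0.00867 for GAG, 0.279 ± 0.0215 for GAU and 0.204 ± 0.0175 for GAC. With E1008Q in MCP-ADAR1 they were 0.245 ± 0.0134, 0.318 ± 0.0250, 0.30 ± 0.0215 and 0.245 ± 0.0330 in the same order. Full-length ADAR2 (E488Q) had the highest rates in all 4 contexts. With and without guide they were 0.504 and 0.502 for GAG, 0.381 and 0.335 for GAC, 0.439 and 0.429 for GAA, and 0.461 and 0.521 for GAU. The GAC rates of full-length wild-type ADAR2 were 0.130 and 0.0685, against 0.0529 to 0.103 in the wild-type MCP fusions, and its GAA rates were 0.428 and 0.276. The smallest counts behind these rates were those of wild-type MCP-ADAR2-NLS without guide, with 2 called GAU, 10 GAC, 18 GAA and 97 GAG sites.

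**Figure D2:**
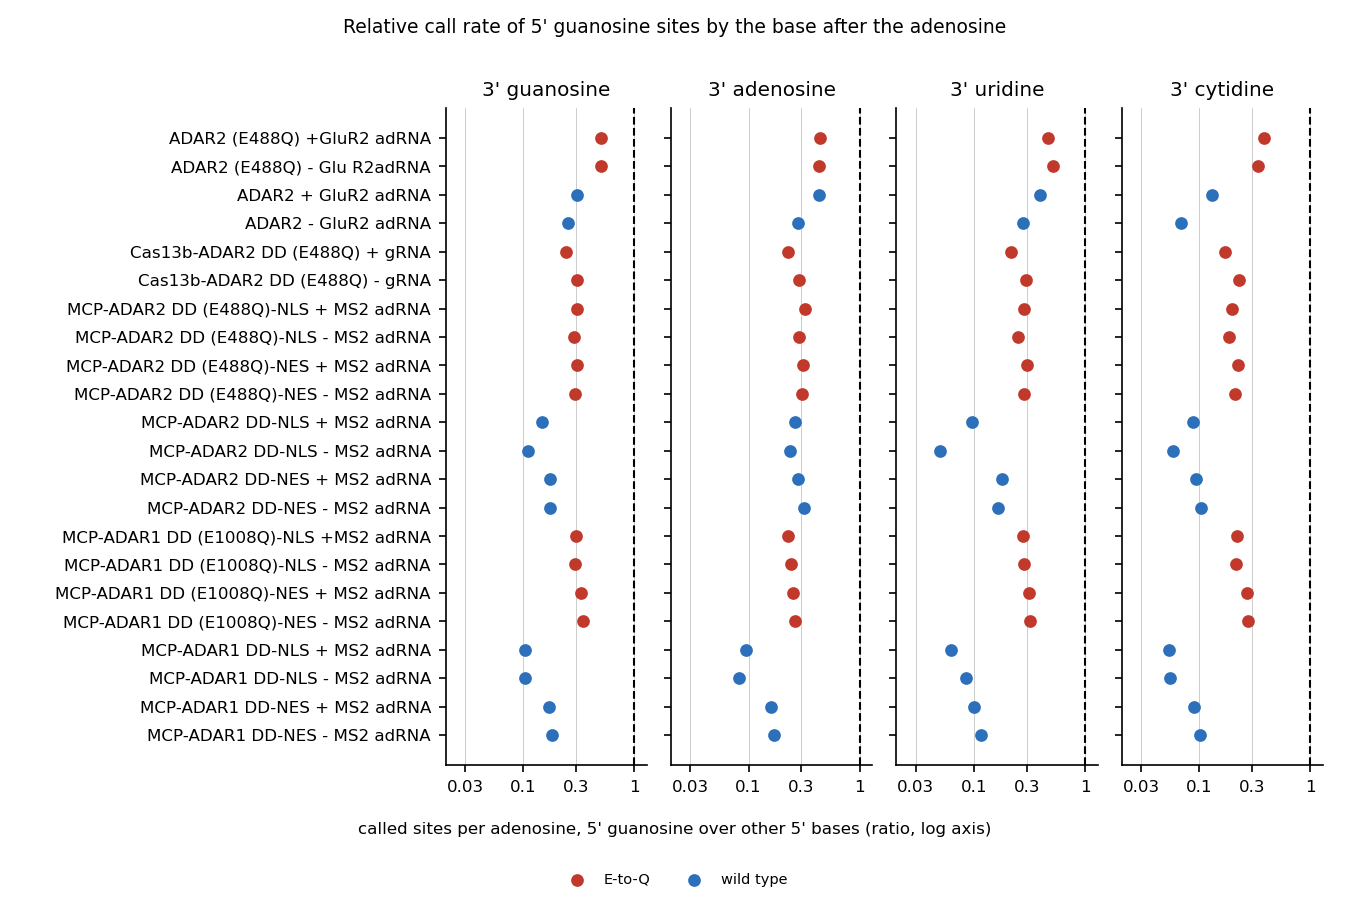
Called sites per adenosine after a 5′ guanosine relative to other 5′ bases (x axis, ratio on a log scale, 1 dashed), in 4 panels by the base after the adenosine, for each of the 22 deaminase libraries. The wild-type MCP-ADAR2 points lie between 0.238 and 0.319 in the 3′ adenosine panel, right of their places in the other panels.

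Within the called 5′ guanosine sites GAG was the commonest context everywhere. It made up 67.7 ± 1.5% in MCP libraries with E-to-Q and 77.9 ± 2.02% in wild-type ones (SD, n = 8 each), and was lower with E-to-Q in 10 of 10 matched pairs, with a difference of -10.0 ± 2.53 percentage points. GAC was more common with E488Q, with 16.2, 16.7, 17.6 and 17.1% of the called 5′ guanosine sites in the 4 MCP-ADAR2 (E488Q) libraries, against 9.05, 7.87, 8.34 and 9.00% in the wild-type ones. Matching shares by 3′ base were not made for called adenosines with other 5′ bases. These 2 shifts are therefore not a result about 5′ guanosine.

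Sites with a 5′ guanosine were also edited to lower levels. The median share of edited reads among called sites was lower than that of called sites with other 5′ bases in 22 of 22 libraries, with a difference of -2.61 ± 0.834 percentage points (SD). Among called 5′ guanosine sites it was 13.6, 12.2, 11.8 and 13.8%, against 15.4, 13.4, 14.3 and 16.0% in the 4 full-length libraries. The mean gain in share over untransfected cells, taken over all listed sites whether called or not, averaged 2.64 percentage points at 5′ guanosine sites and 4.29 at the other adenosines. By the base after, it was 2.96 points for GAG, 2.14 for GAC, 1.99 for GAU and 1.93 for GAA. Full-length ADAR2 (E488Q) without guide was the only library in which the gain at 5′ guanosine sites was the higher one, 2.77 points, against 2.56 at other adenosines. With guide the same enzyme gave 7.74 and 7.82 points. Medians of called shares also move with depth, since a shallow library calls only high shares, and depth was not given.

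Each set of matched pairs compares libraries that differ in 1 construct feature, and the sets reuse the same libraries. The E-to-Q variants called more 5′ guanosine sites than their wild types in 10 of 10 matched pairs. The called 5′ guanosine sites were 3.38- to 17.0-fold as many, a mean log2 ratio of 2.93 ± 0.88 (SD), against 1.91 ± 0.78 for other adenosines. The log2 ratio at 5′ guanosine sites was the larger one in every pair, by 1.02 ± 0.31, or 1.59- to 2.85-fold. The MCP-ADAR1-NLS pairs had the largest such excess, with 1.51 with guide and 1.5 without. The log2 ratio of the relative call rate, E-to-Q over wild type, averaged 1.60 ± 0.41 at GAC, 1.36 ± 0.68 at GAU, 1.06 ± 0.30 at GAG and 0.54 ± 0.53 at GAA. The highest of the 4 contexts was GAC in 5 pairs and GAU in the other 5, and over the 8 MCP pairs both averaged alike, 1.52 ± 0.37 at GAC and 1.56 ± 0.58 at GAU. GAA was the lowest of the 4 contexts in 9 of 10 pairs.

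Site by site, limma on the arcsine square root of the shares in the 16 MCP libraries found 19202 of 42686 5′ guanosine sites higher with E-to-Q (45%, against 39.7% of all 382978 sites) and 316 lower (0.740%, against 0.72%) at an adjusted p under 0.05 over all sites. The median difference over 5′ guanosine sites was 1.40 percentage points, against 1.57 over all sites. By context 54.0% of GAC, 51.2% of GAU, 42.7% of GAG and 40.4% of GAA sites were higher with E-to-Q. With another 5′ base and the same 3′ base the shares were 54.0, 44.8, 33.3 and 36.1%. The GAC share thus equalled that of its 3′ base elsewhere. GAA had the largest share of lower sites, 93 of 4564 (2.04%), while 0.667% of GAG, 0.586% of GAU and 0.281% of GAC sites were lower. Among adenosines with another 5′ base and a 3′ adenosine, 0.605% were lower. The 8 NLS libraries alone called 6165 sites and the 8 NES libraries alone 5864. With 1 library per condition the spread in this fit comes from 11 residual degrees of freedom that hold interactions between the construct features as well as noise. A site that only E-to-Q libraries called entered the list through the group where it is high. MCP-ADAR1 (E1008Q)-NES held 4423 and 2474 5′ guanosine sites called in no other deaminase library (without and with guide). Wild-type MCP-ADAR1-NES held 951 and 500. The lean towards higher is thus partly set by the listing. The same limit holds for the localisation and enzyme counts below.

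The largest rise with E-to-Q was at GAG in the 5′ UTR of CLTC, the clathrin heavy chain gene (chr 17, position 59620066, plus strand; ENSG00000141367.11). Its share of edited reads was 60.4, 55.6, 59.1 and 57.9% in the 4 MCP-ADAR2 (E488Q) libraries, against 21.9, 14.0, 34 and 27.7% in wild-type MCP-ADAR2, and 45.8, 39.1, 58.6 and 60.8% in MCP-ADAR1 (E1008Q), against 8.10, 7.59, 15.5 and 11.5% in wild-type MCP-ADAR1. Within each enzyme the groups did not overlap, and the difference was 37.1 ± 7.85 percentage points (SD, n = 8 pairs; limma, adjusted p = 4.91e-06). TTF1, a termination factor of RNA polymerase I, had GAG at E179G (chr 9, position 132402286, minus strand), with 18.2 to 60.0% in the 8 E-to-Q libraries and 0 to 13.9% in the 8 wild-type ones, a difference of 35.5 ± 13.9 percentage points (SD, n = 8 pairs; limma, adjusted p = 4.74e-05). RIPK4, a receptor-interacting kinase, had GAG in its 3′ UTR (chr 21, position 41740499, minus strand) at 10.5 to 72.7% with E-to-Q and 0 to 35.3% with wild type, a difference of 34.8 ± 17.8 percentage points (SD, n = 8 pairs; limma, adjusted p = 0.000155). The TTF1 groups were apart, while those of RIPK4 overlapped. Sites named for a construct feature were chosen for a large limma difference with the same sign in all 8 pairs. Their separation therefore follows in part from the choice. By the authors' p, TTF1 was called in 6 and RIPK4 in 4 of the 22 deaminase libraries.

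A smaller number of sites ran the other way. At the synonymous GAG site G567G of BCAR1, an adaptor protein of focal adhesions (chr 16, position 75235198, minus strand; ENSG00000050820.16), the share was 0, 0, 1.06 and 0% in MCP-ADAR2 (E488Q), against 20.5, 15.5, 31.2 and 26.0% in wild-type MCP-ADAR2, and 1.32, 2.94, 2.61 and 2.75% in MCP-ADAR1 (E1008Q), against 16.0, 14.9, 15.6 and 15.8% in wild-type MCP-ADAR1. All 8 E-to-Q libraries lay below all 8 wild-type ones, with a difference of -18.1 ± 6.79 percentage points (SD, n = 8 pairs; limma, adjusted p = 2.68e-05). At the GAA site E734G of ACIN1, a nuclear protein of RNA processing (chr 14, position 23078247, minus strand), the share was 18.2, 21.4, 12.9 and 15.2% in MCP-ADAR1 (E1008Q) and 38.2, 36.2, 37.9 and 46.4% in wild-type MCP-ADAR1, and 0 to 11.4% in MCP-ADAR2 (E488Q) and 12.6 to 20.4% in wild-type MCP-ADAR2, a difference of -17.1 ± 8.24 percentage points (SD, n = 8 pairs; limma, adjusted p = 0.000277). A GAG site in an exon of a noncoding transcript of NLRP1, an inflammasome sensor (chr 17, position 5500170, minus strand), stood at 0 to 8.11% with E-to-Q and 12.0 to 32.0% with wild type, a difference of -16.0 ± 4.65 percentage points (SD, n = 8 pairs; limma, adjusted p = 0.000238). Only 1 of the 22 deaminase libraries called the NLRP1 site by the authors' p.

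**Figure D3:**
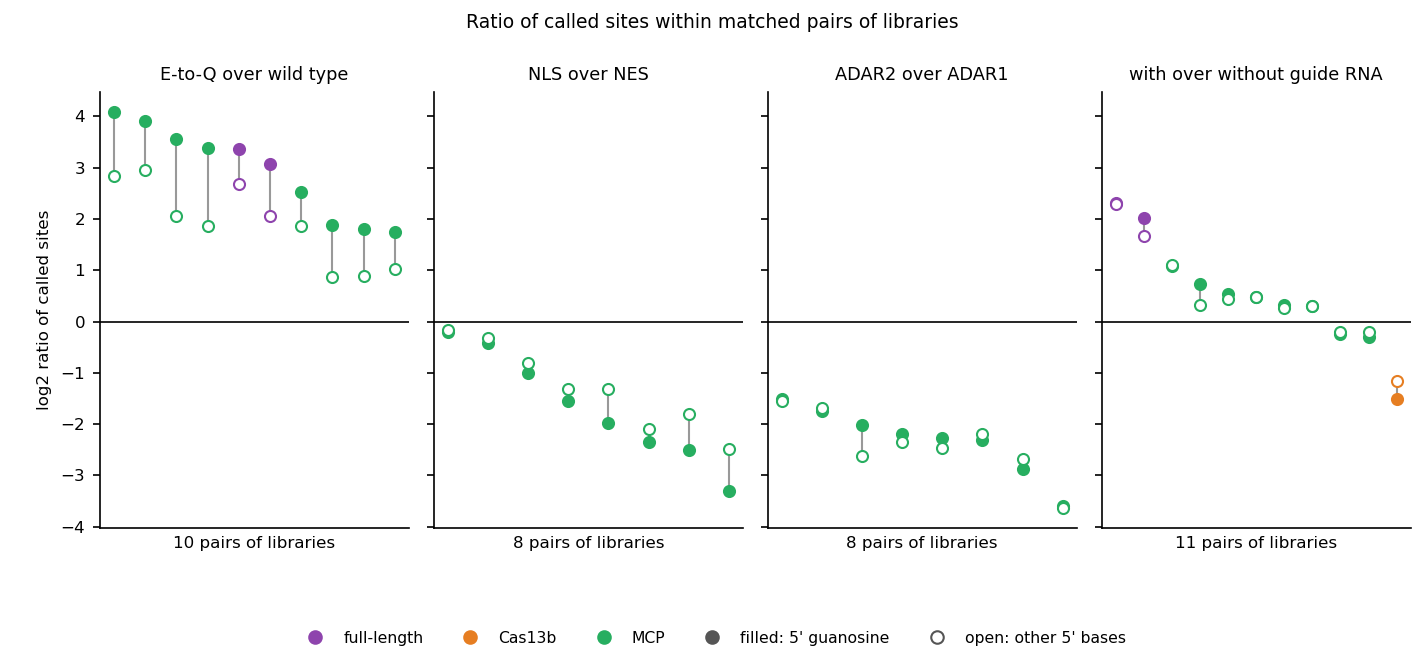
Log2 ratio of called sites (y axis) in matched pairs of libraries, sorted within each panel, for 5′ guanosine sites (filled) and adenosines with other 5′ bases (open), by carrier. In the 10 pairs of E-to-Q over wild type every filled point lies above its open one, by 0.666 to 1.51, and in the 8 pairs of NLS over NES every filled point lies below it.

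NLS fusions called fewer 5′ guanosine sites than NES fusions in 8 of 8 pairs, with a mean log2 ratio of -1.66 ± 1.08 (SD), against -1.29 ± 0.82 for other adenosines. The ratio was the lower one at 5′ guanosine sites in each pair, with differences in log2 ratio between -0.82 and -0.03. The gap was wider in the wild types: the 5′ guanosine share of called sites averaged 3.78 ± 0.757% with NLS and 5.60 ± 0.27% with NES in the wild types, and 8.72 ± 0.251% with NLS and 9.51 ± 0.565% with NES in the E-to-Q variants (SD, n = 4 libraries each). The difference between wild type and E-to-Q in this gap was not tested. limma found 10 5′ guanosine sites higher with NLS (0.0234%, against 0.0397% of all sites) and 765 lower (1.79%, against 3.76%). The median difference was -0.819 percentage points over 5′ guanosine sites and -1.46 over all sites. The number of these calls, 775 with all 16 libraries, depended on which libraries entered. limma without any 1 of the 8 MCP-ADAR1 libraries called 60 to 190 sites. Leaving out a wild-type MCP-ADAR2-NES library gave 202 (with guide) or 822 lower and 9 higher (without guide). Leaving out a wild-type MCP-ADAR2-NLS library gave 481 lower and 7 higher (with guide) or 1249 (without guide). For MCP-ADAR2 (E488Q)-NLS the counts were 823 lower and 9 higher (with guide) or 509 (without guide). For MCP-ADAR2 (E488Q)-NES they were 1012 lower and 8 higher (with guide) or 1273 (without guide). On untransformed shares limma called 0, with 7730 at an unadjusted p under 0.05.

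The site highest with NLS relative to NES was GAG at E113G of PSMC3IP, a recombination cofactor known from meiosis (chr 17, position 42573623, minus strand; ENSG00000131470.14). Its share was 39.4, 26.7, 22.4, 10.8, 47.8, 41.0, 5.13 and 5.43% in the 8 NLS libraries (ADAR2 E488Q, ADAR2 wild type, ADAR1 E1008Q and ADAR1 wild type, with and without guide in each), against 1.83, 2.63, 0.893, 1.67, 3.23, 4.52, 1.19 and 4.96% in the NES libraries in the same order. It was higher with NLS by 22.2 ± 16.6 percentage points (SD, n = 8 pairs; limma, adjusted p = 0.0208), and the 4 pairs with E-to-Q had the larger differences. The same sign in 8 of 8 pairs was a condition for naming a site, so it follows from the choice. TRO, the cell adhesion gene trophinin, at E289G (GAG, chr X, position 54923398, plus strand) and TIMM50, a subunit of the mitochondrial import machinery, in its 3′ UTR (GAG, chr 19, position 39491986, plus strand) rose with NLS by 11.1 ± 6.42 percentage points (SD, n = 8 pairs; limma, adjusted p = 0.0423) and by 9.55 ± 7.87 percentage points (SD, n = 8 pairs; limma, adjusted p = 0.0258). The TRO call was lost in 14 of 21 alternative fits and the TIMM50 call in 5 of 21. By the authors' p, only 3 of the 22 deaminase libraries called the TRO site and 1 the TIMM50 site. The TIMM50 site also reached 13.3% in a library of GFP or a guide alone.

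The site lowest with NLS relative to NES was the GAC site in the 5′ UTR of HDLBP, which encodes the RNA-binding protein vigilin (ENSG00000115677.16). Its share was 20.8, 23.9, 6.45, 4.35, 45.2, 31.7, 12.1 and 8.33% with NLS, against 38.6, 31.0, 21.3, 11.0, 58.0, 59.2, 34.7 and 31.9% with NES, in the same order of enzymes. The difference was -16.6 ± 7.67 percentage points (SD, n = 8 pairs; limma, adjusted p = 0.0182), although the ranges of the 2 groups overlap across enzymes. Its sign in 8 of 8 pairs again follows from the choice. CDR2L (3′ UTR, GAG, chr 17, position 75004769, plus strand) and KIF26A, a kinesin family gene (3′ UTR, GAG, chr 14, position 104180374, plus strand), had differences of -16.0 ± 15.2 percentage points (SD, n = 8 pairs; limma, adjusted p = 0.0247) and -14.4 ± 7.43 percentage points (SD, n = 8 pairs; limma, adjusted p = 0.0366). The KIF26A call was lost in 10 of 21 alternative fits and the CDR2L call in 2 of 21. By the authors' p, 8 of the 22 deaminase libraries called the KIF26A site and only 2 the CDR2L site.

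MCP-ADAR2 called fewer 5′ guanosine sites than MCP-ADAR1 in 8 of 8 pairs, with a mean log2 ratio of -2.31 ± 0.66 (SD). Adenosines with other 5′ bases had -2.40 ± 0.65, and the difference between the 2 ratios, 0.08 ± 0.25, was within its spread over pairs and positive in 5 of 8. The relative call rate as a whole did not separate the enzymes beyond this spread, but that of one context did. At GAA the relative call rate was higher with ADAR2 in 8 of 8 pairs, with a log2 ratio of 0.75 ± 0.53, while GAC had -0.02 ± 0.35, GAG 0.02 ± 0.22 and GAU 0.09 ± 0.53, with both directions among the pairs. limma found 1790 5′ guanosine sites higher with ADAR2 (4.19%, against 2.6% of all sites) and 22569 lower (52.9%, against 66.0%). The median difference was -1.33 percentage points over 5′ guanosine sites, against -2.68 over all sites. The 8 NLS libraries alone called 3825 sites and the 8 NES libraries alone 21676. By context 4.89% of GAA, 4.79% of GAU, 4.07% of GAG and 4.01% of GAC sites were higher with ADAR2. With another 5′ base and the same 3′ base the shares were 2.37, 2.57, 2.30 and 2.47%.

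Single sites, chosen for the largest differences, separated the 2 enzymes almost completely. At the GAC site T143A of SNRPB, which encodes the Sm proteins B and B′ of the spliceosome (chr 20, position 2463221, minus strand; ENSG00000125835.18), the share was 0.432, 0.280, 0.504, 0.181, 0, 6.72, 0.126 and 0.0596% in the 8 MCP-ADAR2 libraries, against 63.8, 64.0, 74.3, 72.7, 41.7, 38.4, 54.9 and 54.6% in the 8 MCP-ADAR1 libraries. The groups were far apart, with a difference of -57.0 ± 14.6 percentage points (SD, n = 8 pairs; limma, adjusted p = 4.42e-07). The 3′ UTR GAG sites of ORC6, a subunit of the origin recognition complex (chr 16, position 46698017, plus strand), and COPA, a coatomer subunit (chr 1, position 160289706, minus strand), followed the same pattern, at 0.621 to 6.41% and 0 to 8.47% with ADAR2, against 28.7 to 77.5% and 27.6 to 77.5% with ADAR1. The highest ADAR2 value at each of these 3 sites came from 1 library, wild-type MCP-ADAR2-NLS without guide, with 6.72% at SNRPB, 6.41% at ORC6 and 8.47% at COPA. The other 7 were at most 0.504% at SNRPB, 1.83% at ORC6 and 4.69% at COPA. Without that library limma called 24918 5′ guanosine sites for the enzyme, beside 24359 with it. The differences at ORC6 and COPA were -54.3 ± 19.3 percentage points (SD, n = 8 pairs; limma, adjusted p = 1.31e-06) and -53.9 ± 18.2 percentage points (SD, n = 8 pairs; limma, adjusted p = 1.21e-06).

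In the other direction, the GAG site E200G of APBA2, a neuronal adaptor protein (chr 15, position 29054483, plus strand; ENSG00000034053.14), had 33.3, 35.3, 26.3, 26.7, 60.9, 52.6, 53.8 and 62.5% in the 8 MCP-ADAR2 libraries, against 11.8, 5.00, 20.0, 4.35, 0, 5.26, 9.52 and 13.0% in the 8 MCP-ADAR1 libraries, again without overlap, a difference of 35.3 ± 18.1 percentage points (SD, n = 8 pairs; limma, adjusted p = 9.89e-05). It was higher in the 4 wild-type MCP-ADAR2 libraries than in the 4 with E488Q, and was listed at 0 in all 4 full-length ADAR2 libraries. By the authors' p, only 4 of the 22 deaminase libraries called the APBA2 site. ZNF496, a zinc finger gene, at E34G (GAG, chr 1, position 247329478, minus strand) had 7.41 to 61.9% with ADAR2 and 0 to 25.0% with ADAR1, overlapping at the edges, a difference of 32.5 ± 13.2 percentage points (SD, n = 8 pairs; limma, adjusted p = 6.99e-05).

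No shift of 5′ guanosine sites relative to other adenosines was detectable with guides. Over 11 pairs the log2 ratio of called 5′ guanosine sites with over without guide was 0.52 ± 1.07 (SD), above 0 in 8, and that of other adenosines was 0.48 ± 0.94. The difference of 0.04 ± 0.21 was smaller than its spread. The full-length pairs had 2.31 (E488Q) and 2.03 (wild type), the Cas13b pair -1.52, and the 8 MCP pairs 0.36 ± 0.47. limma found 0 5′ guanosine sites higher with the MS2 adRNA (against 0.000783% of all sites, 3 in number) and 0 lower (against 0.0%), with 1161 of 42686 at an unadjusted p under 0.05 (2.72%, against 3.05% of all sites).

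Full-length ADAR2 differed from the MCP-ADAR2 fusions in which 5′ guanosine sites it called. The 5′ guanosine share of called sites was 11.3 ± 3.38% in its 4 libraries, against 6.96 ± 2.16% in the 8 MCP-ADAR2 libraries (SD). With E488Q, 14.2 and 14.1% in full-length ADAR2 lay above the 8.40 to 9.19% of MCP-ADAR2, and with wild type 9.41 and 7.48% lay above 3.73 to 5.80%. Its called 5′ guanosine sites lay in 3′ UTRs more often, with 30.1, 34.5, 31.9 and 44.2% in the 4 full-length libraries, against 11.0 to 19.6% in the 8 MCP-ADAR2 libraries. Called sites with other 5′ bases showed the same difference, at 35.0, 39.2, 36.6 and 48.8% in the full-length libraries and 19.6 to 25.6% in MCP-ADAR2. The full-length E488Q library with guide alone held 8050 5′ guanosine sites called in no other deaminase library, and 660 called at a share of 50% or more, against 246 in the next highest library. Matching counts for other adenosines were not made, so these counts are not a result about 5′ guanosine. This library called 38.0% of the 5′ guanosine sites and 32.7% of all listed sites. Its called shares had medians of 13.6% after a 5′ guanosine and 15.4% after other bases. These comparisons rest on 4 libraries and were not tested.

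The 3 sites most above MCP-ADAR2 in full-length ADAR2 all lay outside coding sequence. The GAG site in an exon of a noncoding transcript of FASTK, a gene of mitochondrial RNA metabolism (chr 7, position 151080433, minus strand; ENSG00000164896.19), had 88, 66.7, 73.0 and 66.7% in the full-length libraries, against 7.69, 7.69, 2.44, 1.54, 0, 5.26, 6.06 and 4.41% in MCP-ADAR2. The GAU site in the 3′ UTR of ZNF121, a zinc finger gene (chr 19, position 9564279, minus strand), had 93.3, 60.0, 48.6 and 55.2% in the full-length libraries and was listed at 0 in all 8 MCP-ADAR2 libraries, in the 8 MCP-ADAR1 and both Cas13b libraries and in the controls. The GAU site in the 3′ UTR of DCAF16, a substrate receptor of a ubiquitin ligase (chr 4, position 17802055, minus strand), had 90.9, 42.9, 58.3 and 63.0% in the full-length libraries, against 0 to 5.56% in MCP-ADAR2, and 2.76 ± 0.938% in untransfected cells (SD, n = 3 runs of 1 library). In all 3 the full-length libraries lay far above every MCP-ADAR2 library, with mean differences of 69.2, 64.3 and 61.9 percentage points. The sites were chosen for the largest such differences, so this separation follows from the choice. Both wild-type libraries were at or above E488Q without guide at FASTK and DCAF16.

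High editing after a 5′ guanosine was rare but did occur. A mean gain of at least 20 percentage points over the 22 libraries was reached by 108 5′ guanosine sites (0.253%), against 5273 other adenosines (1.70%), and 40 points by 4, against 229. The highest was the GAG site E157G of SCARB2, a lysosomal membrane protein that carries β-glucocerebrosidase (chr 4, position 76179659, minus strand; ENSG00000138760.9), with a mean gain of 43.9 ± 25.0 points (SD, n = 22). Its share was 26.8, 7.23, 0 and 2.94% in full-length ADAR2, 35.9 and 46.9% in the Cas13b fusion, 73.4, 69.7, 63.5, 68.6, 60.8, 58.6, 79.7 and 73.6% in MCP-ADAR2 and 53.6, 37.3, 63.8, 52.1, 11.7, 20.0, 34.7 and 25.4% in MCP-ADAR1 (E-to-Q listed before wild type, then NLS before NES, and with guide before without). It was high in all MCP-ADAR2 libraries, lower in wild-type MCP-ADAR1, at most 26.8% in full-length ADAR2, and listed at 0 in untransfected cells. The next GAG sites, in the 3′ UTRs of CTSB, the lysosomal protease cathepsin B (chr 8, position 11844685, minus strand), and of CACTIN, a splicing factor (chr 19, position 3611091, minus strand), gained 41.8 ± 27.1 and 41.5 ± 20.5 points. Full-length ADAR2 hardly edited the CTSB site, at 0 to 1.82%, against 20.5 to 76.6% in MCP-ADAR2.

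The leading sites of the other 3 contexts had distinct profiles over constructs. The GAC site in the 5′ UTR of HECA, the human homologue of the Drosophila gene headcase (chr 6, position 139135363, plus strand; ENSG00000112406.4), gained 31.6 ± 19.4 points, with 60.0, 48.1, 52.6 and 22.2% in full-length ADAR2, 30.6 and 48.0% in the Cas13b fusion, 66.7, 52.1, 59.6, 48.0, 15.8, 4.55, 28.6 and 25.0% in MCP-ADAR2 and 16.7, 33.3, 16.0, 17.5, 7.5, 5.26, 17.1 and 20.0% in MCP-ADAR1, in the same order. Both full-length ADAR2 (E488Q) libraries edited it to levels near those of the MCP-ADAR2 (E488Q) fusions. HDLBP and TMEM8A, at its T281A site (chr 16, position 376607, minus strand), followed with 25.3 ± 17.0 and 24.3 ± 16.6 points. The GAA site N2413D of CREBBP, a histone acetyltransferase and transcriptional coactivator (chr 16, position 3727810, minus strand; ENSG00000005339.14), gained 26.8 ± 21.3 points. It had 2.41, 0, 0 and 0% in full-length ADAR2, 1.59 and 2.50% in the Cas13b fusion, 52.0, 32.9, 40.2, 51.6, 14.3, 21.0, 24.1 and 14.1% in MCP-ADAR2 and 53.3, 49.5, 58.7, 63.7, 22.2, 20.3, 30.6 and 34.8% in MCP-ADAR1. MCP fusions of both enzymes edited it and the other carriers of ADAR2 hardly did. ZZEF1 at E1590G and HK1, the glycolytic enzyme hexokinase 1, in its 3′ UTR (chr 10, position 69401586, plus strand) gained 23.6 ± 22.6 and 21.5 ± 20.3 points.

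The GAU site D355G of VAC14, the scaffold of the PIKfyve lipid kinase complex (chr 16, position 70780822, minus strand; ENSG00000103043.14), gained 22.5 ± 16.0 points, with 35.4, 14.5, 6.33 and 3.57% in full-length ADAR2, 12.1 and 22.1% in the Cas13b fusion, 45.5, 44.4, 51.7, 35.8, 14.3, 20.3, 43.8 and 25.9% in MCP-ADAR2 and 27.7, 7.14, 37.9, 27.8, 4.00, 4.41, 4.17 and 5.26% in MCP-ADAR1. It was at 4.00 to 5.26% in wild-type MCP-ADAR1, and the 4 MCP-ADAR2 (E488Q) libraries were at 35.8 to 51.7%. PHLDA3, an inhibitor of Akt, in its 3′ UTR (chr 1, position 201466018, minus strand) gained 20.1 ± 14.9 points and PURA, a nucleic acid-binding protein, in its 3′ UTR (chr 5, position 140118156, plus strand) 19.0 ± 20.8 points. PURA was highest in MCP-ADAR1 (E1008Q), at 47.4 to 64.0%. All of these leading sites other than CTSB, at 0.575%, were listed at 0 in the untransfected runs. They were called in 4 to 19 of the 22 libraries.

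**Figure D4:**
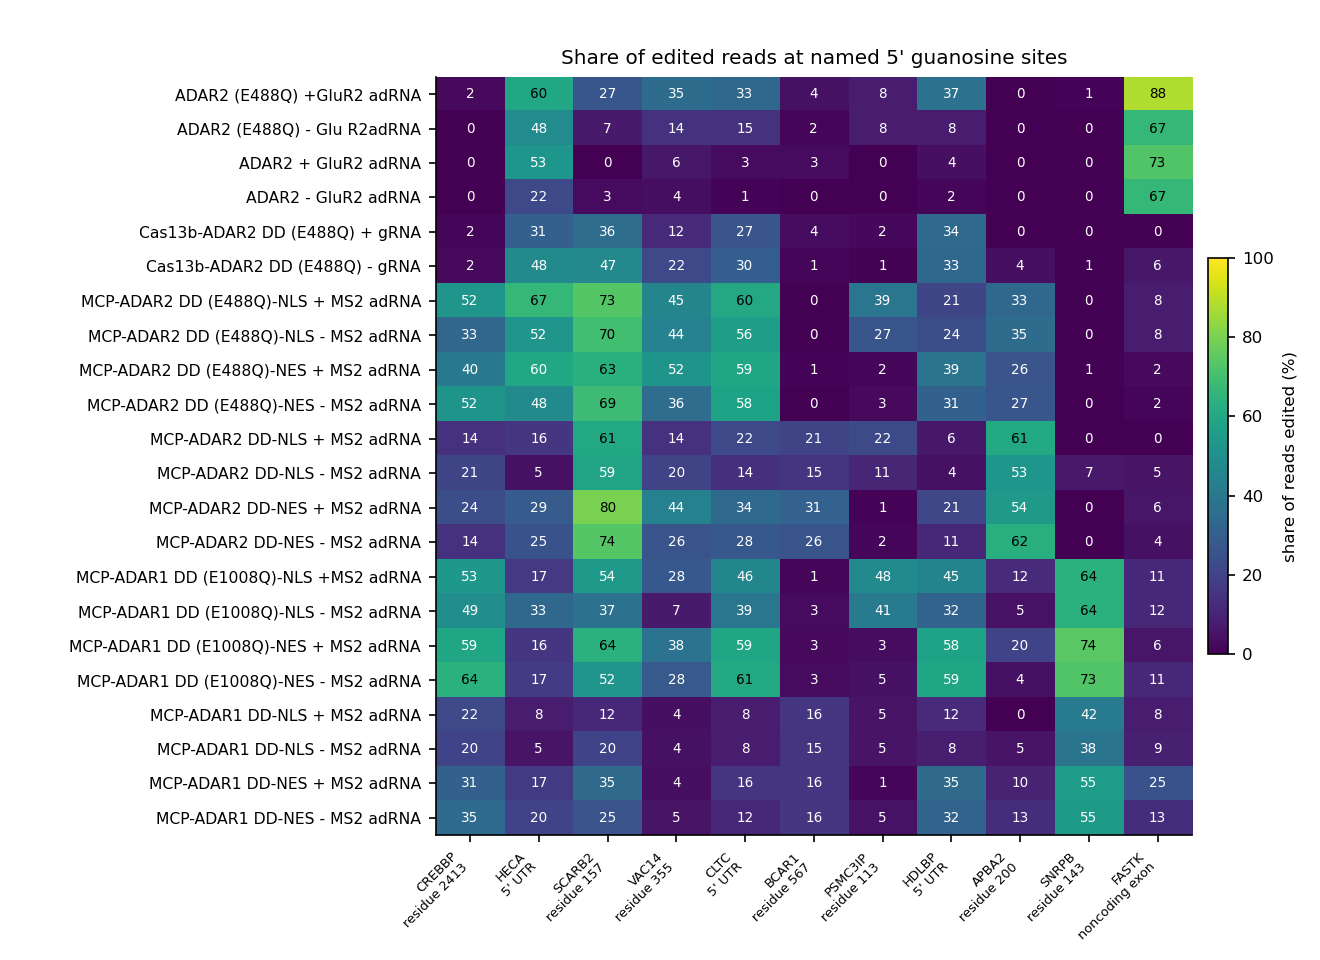
Share of reads with the edited base (%, colour and number) at a leading site for each base after the adenosine and for each construct feature (columns) in the 22 deaminase libraries (rows). SNRPB is highest in the MCP-ADAR1 rows, BCAR1 in the wild-type MCP rows, CREBBP in the MCP rows, PSMC3IP in the NLS rows other than wild-type MCP-ADAR1, and FASTK in the full-length rows.

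5′ guanosine sites recurred less between libraries. Exactly 1 deaminase library called 19485 of them (45.6%), against 35.2% of other adenosines, and 11 or more libraries called 1118 (2.62%), against 7.16%. All 22 libraries called 6, against 435 other adenosines, and no library called 10. The 6 sites of all libraries, named after their values were seen, were all GAG: E129G of HES4, a transcriptional repressor, the 5′ UTR of CDC25A, a cell cycle phosphatase, the adjacent glutamates E79G and E80G of the ribosomal protein gene RPL13, E82G of the endoplasmic reticulum chaperone CALR, and the synonymous R112R of SNRPB. Their mean gains were 12.3 points at HES4, 28.9 at CDC25A, 7.78 and 4.48 at RPL13, 17.7 at CALR and 30.7 at SNRPB. At CALR the share was 19.7 to 33% in the 8 MCP libraries with E-to-Q, against 1.40 to 8.98% in the wild-type ones, without overlap. The depth at these sites was not given. RPL13 has near-identical processed copies, so its reads are of uncertain origin.

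Codons for glutamate and aspartate begin with GA, and these codons held most coding 5′ guanosine sites. Coding sequence held 66.8% of them, 3′ UTRs 24.5% and 5′ UTRs 6.59%, against 64.8%, 29.7% and 3.69% of other listed adenosines. Of the 28767 coding sites 57.6% fell on the second codon position, against 43.0% of other coding sites, and 12.9% on the third, against 29.4%. Editing would replace glutamate by glycine at 12489 sites and aspartate by glycine at 4084, together every site on the second position. Serine to glycine (2099), arginine to glycine (1843) and threonine to alanine (1701) followed. Only 11.9% of the coding sites were synonymous, against 28.2% of coding sites with other 5′ bases, and 273 turned a UGA stop codon into tryptophan. Mean gains were 2.63 points at glutamate codons and 1.92 at aspartate codons. Glutamate codons are GAA or GAG and aspartate codons GAC or GAU, so this difference is also one of the base after the adenosine.

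**Figure D5:**
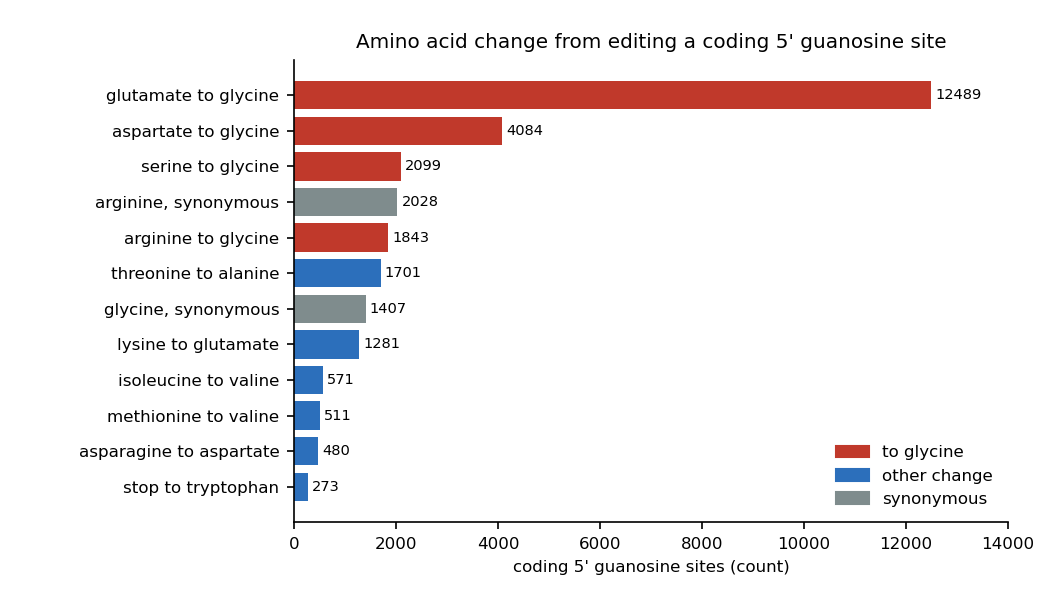
Number of coding 5′ guanosine sites (x axis) by the amino acid change that editing would make, with changes to glycine in red, other changes in blue and synonymous sites in grey. Glutamate to glycine, with 12489 sites, is the longest bar.

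Beyond the triplet, the listed 5′ guanosine sites shared further sequence features. At the base before the guanosine, cytidine stood at 15.5% of the sites, against 7.85% of all 5′ guanosine adenosines in the transcripts, and uridine at 33.1%, against 28.9%, while adenosine was less common (24.8%, against 33.2%). Among the 108 sites with a mean gain of at least 20 points uridine reached 41.7% there, and 87.0% had a 3′ guanosine. At the second base after the adenosine guanosine was enriched, with 40.6% of the sites and 50.9% of the 108, against 28.8% in the transcripts. Of the 13 printed windows, 5 had uridine, 5 guanosine and 3 cytidine before the guanosine, none had adenosine there, and 7 had guanosine at the second base after the adenosine. Guanosine or cytidine was also more common than in the transcripts at the outer positions of the window, so base composition moves with these values, and its part was not tested. The folding of 61 bases around each site was predicted with ViennaRNA. The adenosine was paired at 41.1% of GAG sites, against 40.9% of sites with another 5′ base before AG. In the other contexts the 5′ guanosine sites were paired more often than sites with another 5′ base and the same 3′ base, at 36.8%, against 32.4%, for GAU, 31.1%, against 27.8%, for GAC and 28.9%, against 26.3%, for GAA. For GAG the median folding energy was -16.9 kcal/mol, against -13.8. Paired GAG adenosines had a mean gain of 2.84 points and unpaired ones 3.05. The windows cannot show pairing with distant parts of a transcript or with another RNA.

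5′ guanosine sites lay close to other listed sites: the nearest listed adenosine of the same gene was a median of 7 bases away, against 10 bases for other adenosines, and 91.7% had one within 50 bases, against 84.5%. The genes with the most were PRRC2A with 194 of its 792 listed sites, the stress-response gene SESN2 with 136 of 421, and the fatty acid synthase gene FASN with 128 of 621. Sites of 1 gene share reads and abundance and are not independent.

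In untransfected cells 5′ guanosine sites had a mean share of 0.15%, against 0.143% at other adenosines, and 57.9% of them were listed at 0 in the runs, against 66.6%. A share above 5% was found at 17 of them (0.0398%), against 434 other adenosines (0.140%). The 3 highest were in the 5′ UTRs of the ribosomal protein gene RPL23A (chr 17, position 28719990, plus strand) at 52.8 ± 4.81% and of WDR60, a dynein subunit gene (chr 7, position 158856682, plus strand), at 44.9 ± 7.24%, and in the 3′ UTR of the signalling kinase gene IRAK1 (chr X, position 154011150, minus strand) at 34.6 ± 3.09% (SD, n = 3 runs of 1 library). No deaminase library called them. Their shares in the 22 deaminase libraries were 15.4, 31.6 and 47.7% at RPL23A, 10.0, 34.7 and 58.3% at WDR60 and 21.3, 37.1 and 41.9% at IRAK1 (lowest, median and highest), and the GFP and guide libraries lay at 11.8 to 41.2%, 33.3 to 52.0% and 12.9 to 34.7%. The ranges with and without a deaminase overlapped at each site. DNA of the cell line was not analysed here.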

How the data were processed

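Poly(A) RNA of 30 HEK 293T samples was sequenced, and 22 deaminase libraries, 4 control libraries and runs 2 to 4 of the untransfected library were used. Per the submitters' processing notes the tools were bcl2fastq 2.18.0.12, STAR 2.6.0c and SAMtools with GRCh38.p12. The authors deposited, per site and library, the fraction of reads with the edited base and an adjusted p-value; the test behind the p-values is not given in the sources used here. The deposited table gives 382976 of the 382978 sites a smallest adjusted p below 0.01. Values come without read counts, so depth is unknown and no interval is given. Among the columns of shares, 1 had no name and was not used; untransfected run 1 is therefore not analysed here. Whether libraries kept strand is not stated; 27757 sites in exons of several genes were left out, and 214 of the 5′ guanosine sites lie in pseudogenes, where reads of near-identical copies cannot be told apart.

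Neighbouring bases, regions and codons came from 1 transcript chosen for each site (GENCODE release 29). Complete protein-coding transcripts were preferred, then those annotated as principal, then those holding most listed sites. The gain is the share minus the mean of the untransfected runs. Relative call rates use the adenosines of 1 transcript per gene, the one that holds most listed sites. limma 3.58.1 (R 4.3.3) fitted main effects of enzyme, variant, localisation and guide to arcsine square root shares of the 16 MCP libraries, with an intensity trend. Benjamini-Hochberg adjustment ran over all 382978 sites per factor (threshold 0.05). The fit was also run on simulated data with independent normal noise. Shares at 0 and interactions between construct features were not simulated, so that run cannot give the error rate in these data. Matched pairs of libraries give counts, means and SDs only, without a test. Windows of 61 bases were folded with ViennaRNA 2.7.2. Other steps used Python 3.11.15 with numpy 2.4.6 and pandas 2.3.3. Each condition is 1 library, so p-values measure the spread between libraries of different constructs.

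Named sites were the 3 with the highest mean gain for each base after the adenosine, the 3 called with the largest limma difference in each direction of each factor, the 3 with the largest excess of full-length over MCP-ADAR2 and the 3 highest in untransfected cells; 1 of these is not reported here. The sites, lists and rules were chosen with earlier results of these data known.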

Additional observations from a re-analysis of the deposited data

Results flagged for a closer look

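The log2 ratio of called 5′ guanosine sites with over without guide pointed in opposite directions in 4 comparisons of constructs, and none of these differences was tested. It was -1.52 in the 1 Cas13b pair, against 0.67 on average in the 4 MCP-ADAR2 pairs (0.32 to 1.09), and against 2.17 on average in the 2 full-length ADAR2 pairs (2.03 to 2.31). Among NES fusions it averaged 0.71 in the 2 MCP-ADAR2 pairs (0.32 to 1.09), against -0.28 in the 2 MCP-ADAR1 pairs (-0.31 to -0.25). Within MCP-ADAR1 it averaged 0.39 with NLS (0.31 to 0.48), against -0.28 with NES. Each pair is 1 library against 1 library.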

How the results depend on the processing

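The limma counts of 5′ guanosine sites depended on which libraries entered. For E-to-Q over wild type, 19518 sites were called in all, 5864 in the NES libraries alone, 6165 in the NLS libraries alone and 15949 to 20613 when 1 library was left out. For ADAR2 over ADAR1, 24359 were called in all, 3825 in the NLS libraries alone, 21676 in the NES libraries alone and 21782 to 24918 when 1 library was left out. For NLS over NES, 775 were called, 1598 with an interaction of enzyme and variant, 495 on log2(share + 0.005), 1245 without the intensity trend, 0 on untransformed shares (7730 at an unadjusted p under 0.05) and 60 to 1273 when 1 library was left out. The guide gave 0 calls, and 0 to 1 when 1 library was left out, the 1 call coming without wild-type MCP-ADAR2-NES without guide. For these localisation counts the cause was not tested; the single-localisation fits use fewer libraries. The named variant and enzyme calls held in all 23 alternatives; among the localisation calls, of 21 alternatives, TRO was lost in 14, KIF26A in 10, TIMM50 in 5, CDR2L in 2, and HDLBP and PSMC3IP in 1 each. The mean 5′ guanosine share of called sites, 7.82%, stayed between 6.99 and 7.99% under other call thresholds and gene sets, and the mean relative call rate, 0.242, between 0.215 and 0.247. The matched-pair ratios of called sites, the excess of full-length ADAR2 and the mean gain moved by less than their SD under the alternatives run. No block by replicate number could be fitted, since each condition is 1 library; pairs were matched by construct instead. Depth per site is unknown and limits which low shares could be called.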
